A study of Columba livia with 18 samples.

Results

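The ubiquitin-proteasome genes described here are the gene models of the pigeon table whose annotated symbol names a proteasome gene (PSMA to PSMG followed by a number) or an E2 ubiquitin-conjugating enzyme (UBE2). Of 20918 gene models in the table, 74 met this rule. They were 45 proteasome gene models with 39 symbols and 29 E2 gene models with 26 symbols. The choice used names only and no measured value. Each expression value is an FPKM, a fragment count scaled to gene length and to the mapped fragments of the library, so levels of different genes can be set side by side per length. A mean FPKM above 1 over all libraries, the level at which the study considered a transcript expressed, was reached by 69 members, 41 proteasome and 28 E2 gene models, and these were tested.

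The study compared auditory hair cells that hold a cuticulosome, an iron-rich, ferritin-containing sphere in the apical cuticular plate of some avian hair cells, with hair cells that lack it. Hair cells with cuticulosomes and hair cells without cuticulosomes were picked by hand under a light microscope from the trypsinized cochlear duct of the same 9 pigeons (Columba livia), aged 1 year, after the lagena had been removed. Each library came from a pool of 30 picked cells, which gave 9 libraries with and 9 without cuticulosomes, 1 of each per bird. The birds were sequenced on 3 flow cells, with pigeons 433, 434 and 435 on the first, 450, 451 and 458 on the second, and 513, 514 and 515 on the third. The labels give no genotype, allele or agent for either group. The cells were told apart only by what the microscope showed, and the RNA of 30 cells was amplified before sequencing.

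Proteins are marked for destruction by a relay in which an E1 enzyme activates ubiquitin, an E2 enzyme carries it, and an E3 ligase passes it to the substrate. The 26S proteasome then unfolds and cuts the marked protein. Its cylinder, the 20S core, is built of alpha (PSMA) and beta (PSMB) subunits, and its cap, the 19S regulatory particle, of ATPases (PSMC) that unfold the substrate and non-ATPase subunits (PSMD) that recognise it and remove its ubiquitin. Hair cells are not replaced in mammals but can be regenerated in birds, and in both the core machinery of protein turnover is used by all cell types.

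Hair cell markers were present in all libraries, but in both libraries of pigeon 435 another of the 3 marker lists had a higher sum. Of 18 listed hair cell symbols 14 were found, and their summed level was 1594 to 21440 FPKM with and 5801 to 21208 FPKM without cuticulosomes. Otoferlin (OTOF) was above 0 in every library, at 151 to 1947 FPKM. Among 22 gene models of 17 supporting cell symbols, 17 had the higher mean with cuticulosomes, and 16 had a mean above 1 FPKM. Their summed levels were 255 to 3608 FPKM with and 278 to 1176 FPKM without, higher with cuticulosomes in 5 birds and lower in 4. Leaving out pigeon 435 gave mean sums of 797 FPKM with and 637 FPKM without, and 16 of 22 gene models were higher. The study named SOX2 and GFAP as supporting cell markers. SOX2 (mean 0.66 FPKM) and GFAP (mean 0.021 FPKM) were listed at 0 in 13 and 17 of 18 libraries. Red blood cell symbols summed to 503 to 4690 FPKM with and 475 to 37337 FPKM without. In pigeon 435 the hair cell sum was 1594 FPKM with cuticulosomes, below the supporting cell sum of 3608 FPKM and the red blood cell sum of 4690 FPKM, and without cuticulosomes it was 7825 FPKM, below the red blood cell sum of 37337 FPKM. The library of pigeon 435 with cuticulosomes had the lowest hair cell sum, the highest supporting cell sum and the most gene models above 0 (16008, against 8855 to 13221 elsewhere). The library of pigeon 450 with cuticulosomes had the fewest gene models above 1 FPKM (6737) and the lowest relative depth, 0.503 on a scale where the geometric mean is 1 and the other libraries range between 0.617 and 1.44. The part of these differences in the results was not tested. In pooled cells, fewer expressing cells and less RNA per cell cannot be told apart.

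No proteasome or E2 gene passed the test between hair cells with and without cuticulosomes. In the limma fit with the bird as a block, 0 of 69 members had an adjusted p under 0.05, and the smallest Benjamini-Hochberg adjusted p among them was 0.902. The same fit called 0 of the 11393 gene models tested (0.0%). The study itself, with DESeq2 on counts, reported genes past adjustment in both directions, so this 0 over all gene models belongs to the limma fit alone. None of the genes that the study listed as significant is named as a proteasome or E2 gene. Without adjustment, 2 members were higher with cuticulosomes at p under 0.05, UBE2F and PSMA3, or 2.90% of those tested, against 3.27% of all gene models tested in that direction. Another 4 were lower, PSMD11, UBE2J1, UBE2O and UBE2G2, or 5.80% against 2.01% of all gene models. Of the 3433 gene models at or above the lower quartile of the members' mean FPKM, 103 were higher and 111 (3.23%) lower. The counts of members moved with single birds. Without pigeon 514 they were 0 higher and 2 lower, and without pigeon 515 they were 1 higher and 2 lower. Without pigeon 434, 450, 451, 458 or 513 there was 1 higher. Without the bird as a block they were 0 higher and 3 lower. With pigeons 435 and 450 both left out, an alternative chosen after seeing the data, there were 2 higher and 6 lower. The shares of all gene models under these alternatives are not given here, so these counts were not compared with them.

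Members were spread on both sides of no difference. Of 69 members, 35 had a higher and 34 a lower fitted mean with cuticulosomes (50.7% higher, against 53.9% of all gene models tested). The median log2 difference was -0.02 over the proteasome gene models and 0.10 over the E2 gene models, beside 0.05 over all gene models tested. Over the 3433 gene models at or above the lower quartile of the members' mean FPKM it was -0.02, and 48.2% of them were higher. In the 20S core 9 of 12 gene models had positive differences (median 0.10), while 6 of 8 ATPase gene models (median -0.09) and 9 of 14 non-ATPase gene models (median -0.04) had negative ones. The 8 ATPase gene models carry 6 symbols, since 3 of them, all negative, are named PSMC4. These counts moved with single birds, in alternatives chosen after seeing the data: without pigeon 450, 6 of 12 core (median -0.01), 1 of 8 ATPase and 8 of 14 non-ATPase gene models (median 0.02) were positive, and without pigeon 515, 7 of 12 core and 5 of 8 ATPase gene models (median 0.01) were. Differences ranged between -1.48 for UBE2O and 1.33 for UBE2F. The groups of libraries overlapped for every member, as they did for all gene models tested (0.0% without overlap). Lower values with cuticulosomes in all 9 birds were seen in 2 members, PSMD11 and UBE2J1, against 0.14% of all gene models, and higher values in all 9 birds in 0 members, against 0.167%.

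**Figure D1:**
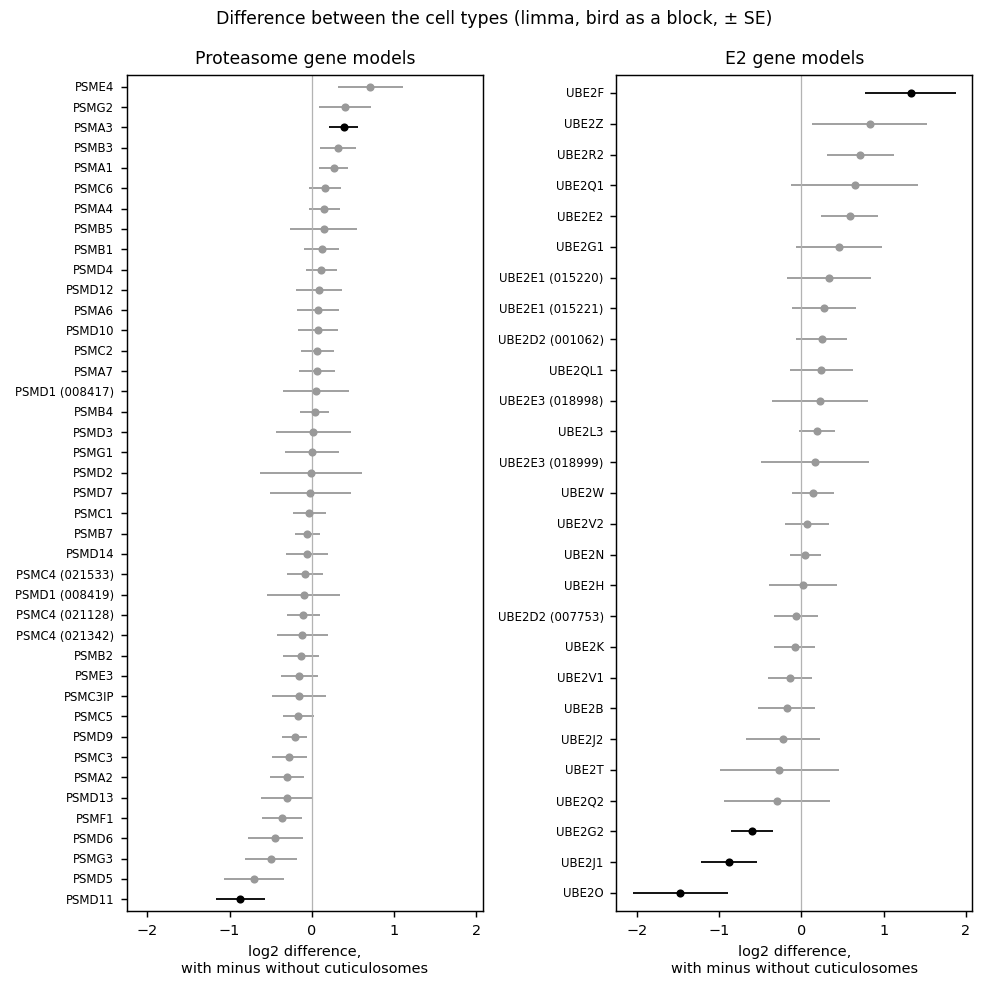
Fitted log2 difference (with minus without cuticulosomes, limma on log2(FPKM + 1), n = 9 birds) of the tested members whose single values are reported, proteasome at left and E2 at right; bars are standard errors and black points have an unadjusted p under 0.05. The differences run between -1.48 and 1.33, and none passed adjustment over 11393 gene models.

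The alpha subunits form the outer rings of the core and its gate. Their 6 tested gene models had means between 191 and 341 FPKM over all 18 libraries, in the order PSMA4, PSMA3, PSMA7, PSMA1, PSMA6 and PSMA2. This 1.79-fold range was the narrowest among the tested gene models of the 4 classes of the 26S particle. The ranking depends on annotation: no member is named PSMA5, and untested PSMA7 gene models are left out. The 10.6-fold range of the ATPases includes the lowest of 3 gene models named PSMC4. PSMA4 had 256, 302 and 879 FPKM as the lowest, median and highest of 9 libraries with cuticulosomes, against 215, 311 and 390.1 FPKM without. A single library, that of pigeon 450 with cuticulosomes, stood far above the other 17. The lowest of the class, PSMA2, had 79.7, 175 and 329 FPKM with cuticulosomes, against 117, 194 and 279 FPKM without. Its difference of -0.30 (SE 0.21) went the other way from the other 5 alpha subunits. PSMA3, the alpha member with the smallest p, had 220.0, 317 and 774 FPKM with cuticulosomes, against 219, 258 and 349 FPKM without. Its highest library was again that of pigeon 450, and the groups overlapped, with the median with cuticulosomes inside the range without. PSMA3 was higher with cuticulosomes in 7 of 9 birds, with a log2 difference of 0.39 (SE 0.17, limma p = 0.0392, adjusted p = 0.902; exact two-sided sign-flip permutation p = 0.0234). With single birds left out this difference lay between 0.29 and 0.46, and it averaged 0.15, 0.46 and 0.55 in the first, the second and the third flow cell. The highest limma p over these leave-one-out fits was 0.0971.

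The beta subunits form the inner rings, and PSMB5 and PSMB7, with PSMB6, carry the cutting sites. Their 6 gene models spanned a 24.9-fold range of levels. PSMB7, the subunit with trypsin-like activity, was the most abundant member of all, ranking number 167 of all gene models by mean FPKM, with 316, 578 and 1248 FPKM with cuticulosomes, against 331, 581 and 804 FPKM without. PSMB5, the subunit with chymotrypsin-like activity, was the lowest of the class, with 11.6, 18.4 and 38.6 FPKM with cuticulosomes, against 3.68, 21.7 and 67.3 FPKM without. The libraries without cuticulosomes held both its lowest and its highest value. The PSMB5 value rests on few reads, a mean of 183 normalised counts in the authors' column against a median of 2609 over the members tested. PSMB4, a structural beta subunit, had 235, 321 and 840.1 FPKM with cuticulosomes, against 224, 389.9 and 479.8 FPKM without. PSMB1 averaged 212, PSMB2 96.2 and PSMB3 71.6 FPKM. PSMB3, also structural, was higher with cuticulosomes in 7 of 9 birds with a log2 difference of 0.32 (SE 0.22), a limma p of 0.174 and an exact sign-flip permutation p of 0.0273. Among the 5 most abundant proteasome members, PSMB7, PSMD9, PSMB4, PSMA4 and PSMC5, no neighbour in the order of bird means differed beyond the spread between birds: PSMB7 exceeded PSMD9 in 8 of 9 birds (exact sign-flip permutation p = 0.0391, adjusted over 8 pairs 0.125), and PSMB4 exceeded PSMA4 in 6 (exact sign-flip permutation p = 0.0469, adjusted 0.125).

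**Figure D2:**
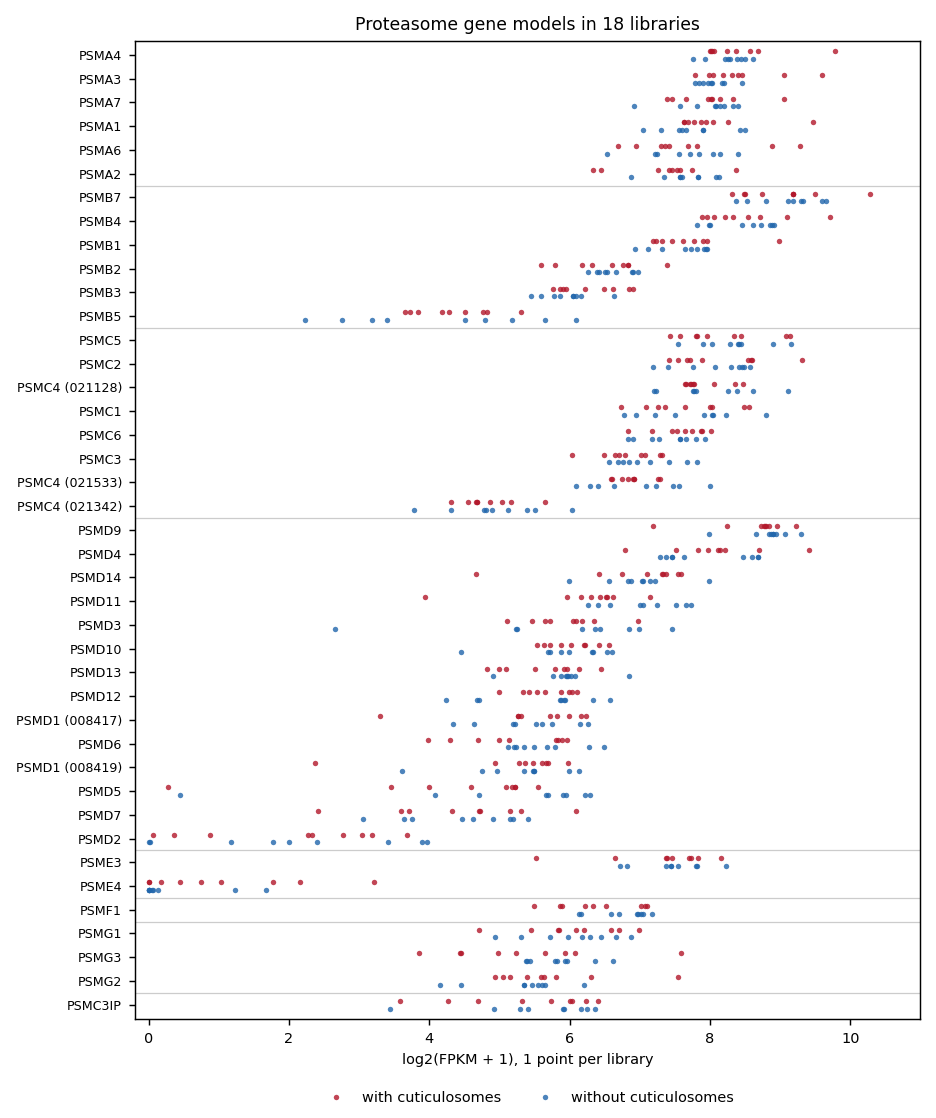
Level of each tested proteasome gene model as log2(FPKM + 1), 1 point per library (9 with cuticulosomes above, 9 without below), grouped by class and ordered by mean within it; numbers in brackets tell apart gene models that share a symbol. Means range between 572 FPKM for PSMB7 and 1.11 FPKM for PSME4, and the points at the far right of the alpha subunits belong to pigeon 450 with cuticulosomes.

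The ATPases, which form the ring at the base of the cap, were expressed near the level of the core. The class median was 205 FPKM, against 260 FPKM for alpha, 154 FPKM for beta and 54.7 FPKM for non-ATPase gene models. In every one of 18 libraries the alpha median and the ATPase median exceeded the non-ATPase median. PSMC5 led with 171, 248 and 566 FPKM with cuticulosomes, against 186, 338 and 569 FPKM without. PSMC2, PSMC1, PSMC6 and PSMC3 averaged 295, 226, 185 and 129 FPKM. PSMC4 is annotated on 3 gene models, on scaffolds 4690, 4776 and 1461, with means of 263, 128 and 30.9 FPKM. The lowest of these had 18.9, 24.7 and 49.4 FPKM with cuticulosomes, against 12.8, 28.9 and 64.7 FPKM without, so groups overlapped nearly throughout. Only the gene model on scaffold 4690 carries the AAA domain. Reads that could belong to more than 1 of the 3 gene models may have been split or dropped in counting, and their single levels are uncertain. All 3 had small negative differences (-0.11, -0.08 and -0.12), as had PSMC5 (-0.16), PSMC3 (-0.28) and PSMC1 (-0.03), while PSMC6 (0.16) and PSMC2 (0.07) were positive. The smallest unadjusted p in the class was 0.212, for PSMC3.

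The non-ATPase class holds receptors, scaffolds, the deubiquitinase and 3 assembly chaperones, and was the most uneven, with an 87.1-fold range over 14 gene models. Its highest member, PSMD9, is a chaperone for ATPase assembly and not part of the finished particle, and had 145, 441 and 597 FPKM with cuticulosomes, against 253, 474 and 629.7 FPKM without. Pigeon 435 gave the lowest value in both groups. Without PSMD9 and the other assembly chaperones, PSMD5 and PSMD10, the highest was PSMD4, a ubiquitin receptor, at 286 FPKM, followed by the deubiquitinase PSMD14 at 133 FPKM. The lowest was PSMD2, one of the large scaffold subunits, with 0.0452, 4.03 and 11.8 FPKM with cuticulosomes, against 0, 2.997 and 14.6 FPKM without. Its value was listed at 0 in 1 library. The other scaffold, PSMD1, is annotated as 2 gene models on scaffold 698, with means of 46.8 and 40.9 FPKM. PSMD3, PSMD10, PSMD13, PSMD12, PSMD6 and PSMD7 averaged 73.3, 65.6, 57.5, 52.0, 45.3 and 25.2 FPKM. The library median over the 14 gene models was 35.3 to 59.9 FPKM with and 48.9 to 79.7 FPKM without, lower with cuticulosomes in 8 of 9 birds, while the median of the paired differences of the same gene models was below 0 in 5 birds and above 0 in 4.

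PSMD11, a lid subunit that helps hold the cap on the core, had the smallest p of all members. Its level was 14.3, 85.8 and 140.0 FPKM (lowest, median and highest of 9) with cuticulosomes, against 75.6, 131 and 212 FPKM without. Every bird had the lower value with cuticulosomes, although the ranges overlapped between birds. The log2 difference was -0.87 (SE 0.30, limma p = 0.0102, adjusted p = 0.902), and the exact two-sided sign-flip permutation p was 0.0039, the smallest that 9 pairs can give. The difference was largest in pigeon 450, at -3.31, and between -1.22 and -0.14 in the other birds. Without pigeon 450 it was -0.57, without pigeon 433 it was -0.96, and the highest limma p over the 9 leave-one-out fits was 0.0245. By flow cell it averaged -0.37, -1.33 and -0.91. PSMD5, which escorts ATPases during assembly, had 0.212, 33.3 and 45.9 FPKM with cuticulosomes, against 0.366, 50.9 and 77.1 FPKM without. Both libraries of pigeon 450 were near 0 for this gene, and all others were at or above 9.97 FPKM. Its log2 difference was -0.70 (SE 0.36, limma adjusted p = 0.902; exact sign-flip permutation p = 0.0664), lower in 7 of 9 birds.

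**Figure D3:**
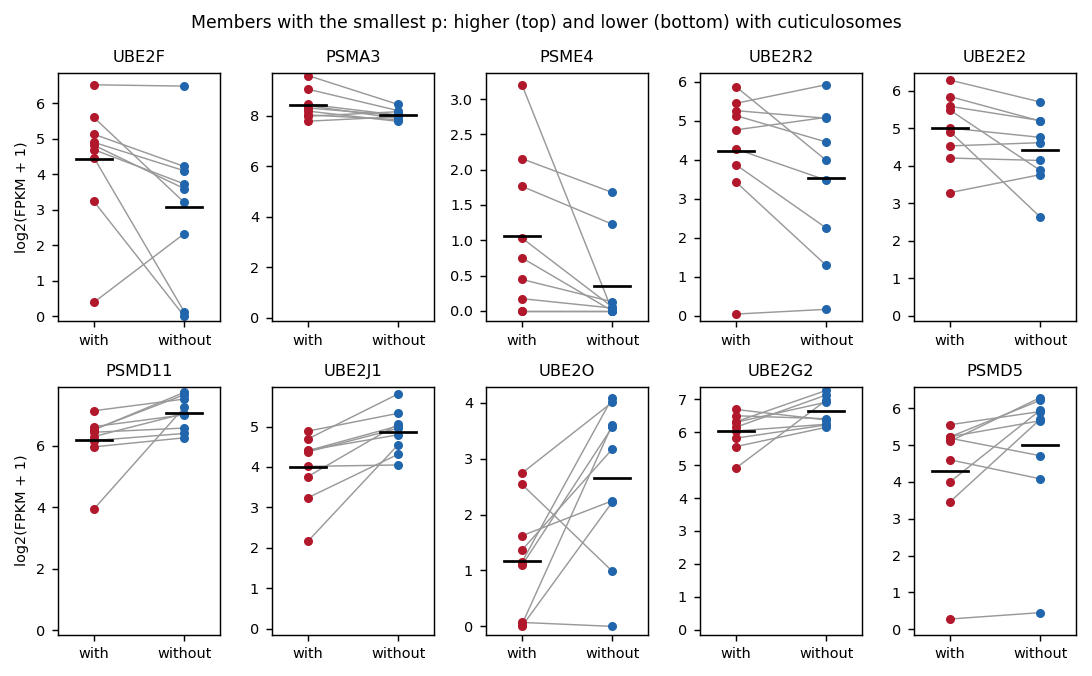
Level as log2(FPKM + 1) of the 5 members with the smallest limma p in each direction, with cuticulosomes at left and without at right of each panel; grey lines join the libraries of a bird (n = 9) and black bars are means. PSMD11 and UBE2J1 are lower with cuticulosomes in 9 of 9 birds, UBE2F is higher in 8 of 9, and the points of both groups overlap in each panel.

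Factors that cap, inhibit or build the core had differences of both signs. PSME3, a nuclear activator that opens the core without ubiquitin, had 44.9, 176 and 283 FPKM with cuticulosomes, against 105, 173 and 298 FPKM without. PSME4, a large activator linked in mammals to histone degradation and sperm development, had a low level per length. It had 0, 0.683 and 8.23 FPKM with cuticulosomes, against 0, 0.0283 and 2.2 FPKM without. PSME4 had a mean of 183 normalised counts in the authors' column. It was higher with cuticulosomes in 7 birds and lower in 0, with 2 birds at 0 in both libraries. The log2 difference was 0.71 (SE 0.40, limma p = 0.0912, adjusted p = 0.902; exact sign-flip permutation p = 0.0156), with 0.40 when pigeon 434 was left out. Its mean was 1.81 FPKM with and 0.411 FPKM without cuticulosomes, so it passed the filter only through the group where it was higher. These p-values are therefore no support for a difference. PSMF1, an inhibitor of the core in vitro, had 44.2, 79.6 and 136 FPKM with cuticulosomes, against 69.1, 124 and 143 FPKM without, lower with cuticulosomes in 5 of 9 birds (difference -0.36, exact sign-flip permutation p = 0.145). The chaperones PSMG1, PSMG3 and PSMG2, which assemble the alpha ring, averaged 71.1, 56.9 and 51.6 FPKM. PSMG1 had 25.1, 67.2 and 126 FPKM with cuticulosomes, against 29.7, 71.6 and 117 FPKM without, with the higher level on the cuticulosome side in 3 birds and on the other side in 6. PSMG2 had 29.5, 47.3 and 186 FPKM with cuticulosomes, against 16.8, 43.1 and 72.9 FPKM without, with its highest value in a library with cuticulosomes. PSMC3IP carries a proteasome-like symbol but is a meiotic recombination partner, named for binding PSMC3. It averaged 49.7 FPKM from a mean of only 37.1 normalised counts, 0.746 counts per FPKM against a median of 36.5 over the members.

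The E2 enzymes as a class lay lower than the proteasome, with a median level of 24.0 FPKM against 110.5 FPKM, and both lay above the 9.84 FPKM of all gene models tested. UBE2N, which with the catalytically inactive partners UBE2V1 and UBE2V2 builds lysine-linked chains used in signalling, led the class with 111, 214 and 287 FPKM with cuticulosomes, against 129, 211 and 311 FPKM without. Its partner UBE2V2 was next with 63.1, 123 and 139 FPKM with cuticulosomes, against 51.2, 113 and 247 FPKM without, and UBE2V1 averaged 68.9 FPKM. UBE2N exceeded UBE2V2 in 9 of 9 birds by 0.996 ± 0.469 on the log2 scale (SD; exact sign-flip permutation p = 0.0039, adjusted over 8 pairs 0.0313). This was the only one of 8 neighbouring pairs that passed. The pairs and their order were picked by mean FPKM in these same libraries, so the p of a pair is no separate support for its order. In the authors' mean normalised counts, which are not scaled to length, the higher UBE2D2 gene model (7981) exceeded UBE2N (7108). With 8 birds the smallest adjusted p of a pair that is alone at the minimum is 0.0625, and 0 pairs passed when any bird but pigeon 433 was left out, against 2 without pigeon 433.

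After these came 3 enzymes with means close to that of UBE2V2. UBE2D2, a promiscuous partner of many E3 ligases, had 66.8, 86.2 and 136 FPKM with cuticulosomes, against 54.5, 81.9 and 193 FPKM without at its higher gene model, and a second gene model of the same symbol averaged 39.9 FPKM. UBE2L3, which serves HECT and RBR ligases such as parkin, had 45.04, 111 and 156 FPKM with cuticulosomes, against 59.99, 95.8 and 119.6 FPKM without. UBE2W, which attaches ubiquitin to the amino terminus of its substrates, had 56.04, 108 and 133 FPKM with cuticulosomes, against 40.8, 81.8 and 169 FPKM without. The order among UBE2V2, UBE2D2, UBE2L3 and UBE2W was not distinguishable between birds (adjusted p 0.839 or more, exact sign-flip permutation tests). Their log2 differences between cell types lay between -0.07 and 0.19, those of all 10 leading proteasome and E2 members between -0.21 and 0.19, and 0 of these 10 had an unadjusted p under 0.05.

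**Figure D4:**
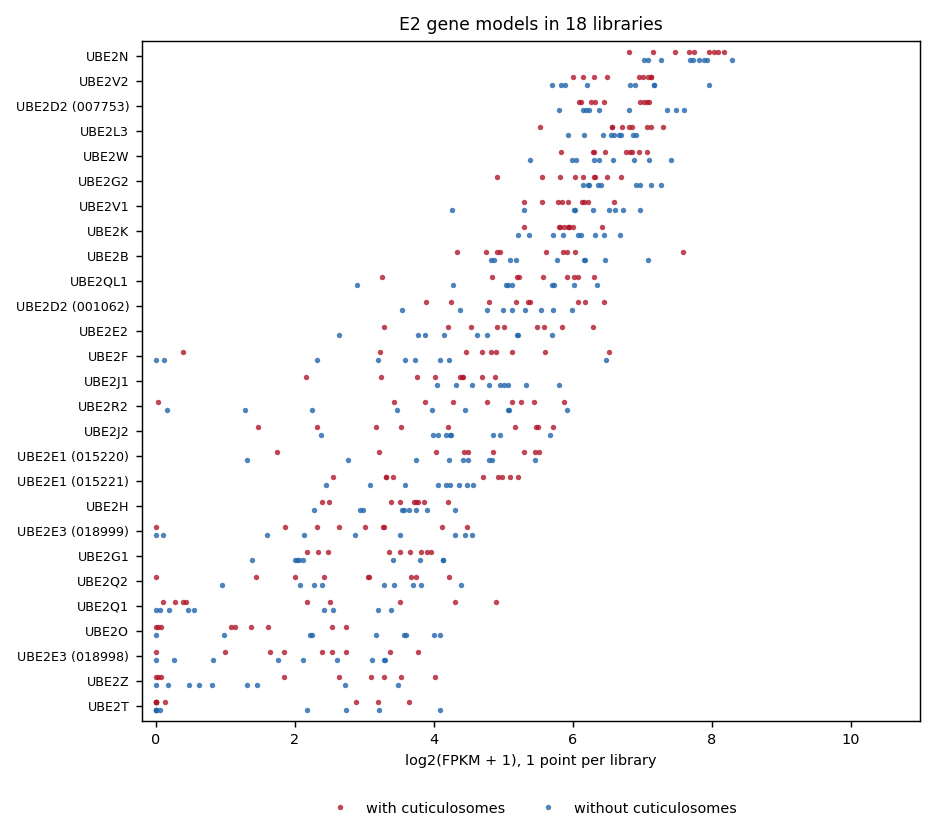
Level of the tested E2 gene models whose single values are reported, as log2(FPKM + 1), 1 point per library (9 with cuticulosomes above, 9 without below), in order of mean FPKM; numbers in brackets tell apart gene models that share a symbol. UBE2N leads at a mean of 209 FPKM, and the points at the left edge are libraries in which a gene model is at or near 0.

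Below them came UBE2G2, UBE2K and UBE2B at 85.1, 62.3 and 59.2 FPKM. UBE2QL1 averaged 44.03, UBE2H 10.7, UBE2G1 8.61, UBE2Q2 7.85, UBE2Q1 5.28 and UBE2Z, an enzyme fed by the second E1, UBA6, 3.93 FPKM. Their log2 differences are shown in the plot of differences. UBE2T, an E2 of the Fanconi DNA repair pathway, was the lowest tested, with 0, 0 and 11.5 FPKM with cuticulosomes, against 0, 0.0425 and 15.97 FPKM without, and was listed at 0 in 9 of 18 libraries. UBE2C, which drives the mitotic exit of dividing cells, was above 0 in only 1 library, at 0.0397 FPKM in pigeon 435 with cuticulosomes, and was not tested. UBE2E1 and UBE2E3 each have 2 gene models that lie beside each other, at 22.1 and 18.0 FPKM and at 8.79 and 4.41 FPKM, so the level of each symbol is uncertain. The gene models of UBE2E1 and UBE2E2 all lie on scaffold 37.

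Of the 3 E2 enzymes that were lower at an unadjusted p under 0.05, the first was UBE2J1, which is anchored in the membrane of the endoplasmic reticulum and works in the disposal of misfolded proteins. UBE2J1 had 3.48, 19.7 and 28.6 FPKM (lowest, median and highest) with cuticulosomes, against 15.6, 30.0 and 55.0 FPKM without. Every bird had the lower value with cuticulosomes, with overlapping ranges. The log2 difference was -0.88 (SE 0.34, limma p = 0.0186, adjusted p = 0.902; exact sign-flip permutation p = 0.0039), was between -0.99 and -0.69 with single birds left out, and averaged -0.93, -0.64 and -1.07 by flow cell. UBE2G2, which works in the same disposal route, had 29.0, 69.96 and 102 FPKM with cuticulosomes, against 69.8, 83.8 and 153 FPKM without. It was lower in 7 of 9 birds by 0.60 in the fit (log2 difference -0.60, SE 0.26, limma p = 0.0332, adjusted p = 0.902; exact sign-flip permutation p = 0.0273). The difference of pigeon 450 was -2.06, and leaving this bird out gave -0.42. UBE2J2, the other membrane-anchored E2 of this route, had a difference of -0.23 (SE 0.45, exact sign-flip permutation p = 0.633).

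UBE2O, a large enzyme that works as E2 and E3 and is abundant in maturing red cells of mammals, had the largest negative difference. Its level was 0, 1.22 and 5.68 FPKM with cuticulosomes, against 0, 7.999 and 15.98 FPKM without. Lower values with cuticulosomes were found in 7 of 9 birds, and pigeons 435 and 513 went the other way by 1.55 and 0.07. The log2 difference was -1.48 (SE 0.58, limma p = 0.021, adjusted p = 0.902; exact sign-flip permutation p = 0.0312), with a range of -1.85 to -1.21 and a highest limma p of 0.0582 when single birds were left out. Red blood cell markers summed to a median of 2714 FPKM with and 943 FPKM without cuticulosomes, and were higher with cuticulosomes in 7 of 9 birds. Their mean sum was 2301 FPKM with and 5062 FPKM without, and 0 of 8 gene models had the higher mean with cuticulosomes. Leaving out pigeon 435 gave mean sums of 2002 FPKM with and 1028 FPKM without, and 5 of 8 gene models were higher. The part of these markers in the UBE2O values was not tested.

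UBE2F, the E2 that loads NEDD8 onto cullin ligases together with RNF7, had the largest positive difference of all members. Its level was 0.31, 27.2 and 90.5 FPKM with cuticulosomes, against 0, 11.05 and 88.2 FPKM without. The higher value lay with cuticulosomes in 8 of 9 birds, all but pigeon 450. The log2 difference was 1.33 (SE 0.55, limma p = 0.0284, adjusted p = 0.902), the exact sign-flip permutation p was 0.0664, and the mean was 0.58, 0.56 and 2.85 in the 3 flow cells. Pigeon 515, with a difference of 4.34, and pigeon 514, with 3.23, were the 2 birds of the highest differences, both on the third flow cell, and without pigeon 515 the fitted difference was 0.95 and without pigeon 450 it was 1.74. UBE2R2, an E2 of the cullin ligases close to CDC34, had 0.0277, 26.1 and 57.5 FPKM with cuticulosomes, against 0.118, 14.8 and 59.6 FPKM without and a log2 difference of 0.71 (SE 0.41, exact sign-flip permutation p = 0.0703). A single library, that of pigeon 513 with cuticulosomes, was at 0.0277 FPKM. UBE2E2 had 8.76, 31.2 and 77.2 FPKM with cuticulosomes, against 5.21, 23.6 and 51.1 FPKM without, with a log2 difference of 0.58 (SE 0.34, exact sign-flip permutation p = 0.0586).

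Variation of the difference between flow cells was tested by the limma interaction of cell type and flow cell. At an adjusted p under 0.05 it called 0 members, and 0 gene models in all (0.0%). Without adjustment 1 member passed, PSMD3, a lid subunit (limma adjusted p = 0.994), with log2 differences of 1.26, -1.36 and 0.15 in the first, the second and the third flow cell, against 4.55% of all gene models.

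Across libraries the members varied less than the gene models tested as a whole, which had lower levels. Over 18 libraries the median SD of log2(FPKM + 1) was 0.56 for the proteasome and 0.89 for E2 gene models, against 1.26 for all gene models tested and 0.84 for the 3433 of them at or above the lower quartile of the members' mean FPKM. Above 0 in every library were 59 of 69 members, or 85.5%, against 45.3% of all gene models tested and 93.9% of the 3433 at or above that lower quartile. Proteasome genes together made 0.727 to 1.46% of summed FPKM with cuticulosomes and 0.785 to 1.296% without, lower with cuticulosomes in 7 of 9 birds. Summed E2 levels were 1041 to 1548 FPKM with and 924 to 1577 FPKM without.

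Within birds, the paired differences of the core subunits were mostly positively correlated, less so without pigeon 450. In pigeon 450 the library with cuticulosomes held the highest value among the 9 for all 12 core gene models. It was also the highest for every ATPase gene model but those of PSMC1 and PSMC3. Of 14 non-ATPase gene models it held the lowest value for 5, and the highest for PSMD4, PSMD7 and PSMD12. The median difference of pigeon 450 was 0.86 over the core, 0.09 over the ATPases, -0.70 over the non-ATPases and -0.02 over the E2 enzymes. The alpha subunit median of its library with cuticulosomes was 665 FPKM, against 299.8 FPKM in the next highest library with cuticulosomes. The same library had the lowest relative depth (0.503), the fewest gene models above 1 FPKM and the highest summed FPKM (788454, against 558379 to 655548 elsewhere). Its median ratio scaling factor was the lowest, at 0.740 against 0.970 to 1.26 elsewhere. The part of these in its values was not tested. Over 9 birds, the paired differences of the 9 core gene models above 100 FPKM had a median Pearson r of 0.44 over 36 pairs of gene models, of which 94.4% were positive, and over all 12 core gene models the median was 0.38 and 83.3% were positive. For the 9 gene models without pigeon 450 the median was 0.11 and 66.7% were positive, while over 1056 gene models above 100 FPKM and above 0 in every library the median r was 0.02 (51.9% positive), and 0.03 without pigeon 450 (52.4% positive). These values are a description, since all points share libraries and depth. The 8 other birds had core medians between -0.40 and 0.28, with 3 of them above 0.

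**Figure D5:**
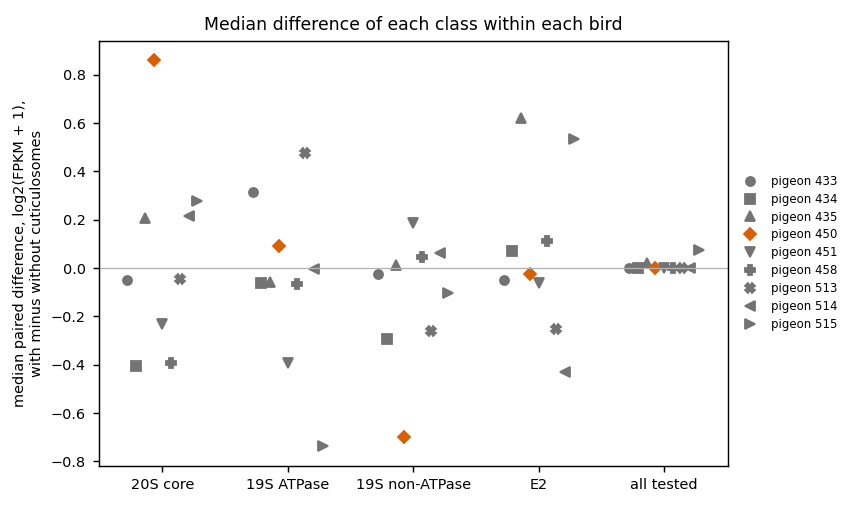
Median paired difference of log2(FPKM + 1), with minus without cuticulosomes, over the gene models of each class, 1 point per bird (n = 9), beside all gene models tested. Pigeon 450, in orange, is the highest for the 20S core at 0.86 and the lowest for the non-ATPase class at -0.70, and the other birds lie on both sides of 0.

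Related genes outside the rule had no adjusted call either. Of 13 gene models of E1 enzymes and ubiquitin-like proteins, 7 had positive differences (median 0.01). The highest of the list was RPS27A, which encodes ubiquitin fused to a ribosomal protein, with 689.8, 946 and 2395 FPKM with cuticulosomes, against 649, 845 and 1251 FPKM without and a log2 difference of 0.30 (SE 0.13, exact sign-flip permutation p = 0.0352, higher with cuticulosomes in 8 of 9 birds). Of 21 proteasome partners 8 were positive (median -0.05). The only one at an unadjusted p under 0.05 was SHFM1, the small lid protein also called SEM1, with 40.3, 64.4 and 109 FPKM with cuticulosomes, against 27.0, 39.97 and 52.1 FPKM without and a log2 difference of 0.62 (SE 0.26, exact sign-flip permutation p = 0.0195), higher in 8 of 9 birds, and the highest was VCP, an unfolding ATPase, at 421 FPKM. Of 12 cullin ligase core genes 7 were positive (median 0.06) and 0 were under 0.05, with SKP1 the highest at 961 FPKM. Of 6 gene models of other proteins with the E2 fold only CDC34 was positive (median -0.26), and TSG101, a sorting factor of endosomes, was the highest at 28.3 FPKM. CDC34, the cullin ligase E2, had 0, 14.9 and 37.9 FPKM with cuticulosomes, against 0, 0.0348 and 25.3 FPKM without and a log2 difference of 2.06 (SE 0.71, exact sign-flip permutation p = 0.0547), higher in 6 and lower in 2 birds. All adjusted p in these lists were 0.902 or more.

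The 5 members left untested are named here for completeness. They are UBE2C, 2 of the 3 PSMA7 gene models (a mean of 0.243 FPKM, and 0 in all 18 libraries) and both PSMG4 gene models, listed at 0 in all 18. The PSMG4 gene model CLIV_015461 has a mean of 13.1 normalised counts in the authors' column although each FPKM is 0. All 14 PSMA and PSMB gene models carry the proteasome domain (Pfam PF00227), 27 of 29 E2 gene models the ubiquitin-conjugating domain (PF00179) and 6 of 8 ATPase gene models an AAA domain (PF00004). Of 65 member symbols, 63 were matched in the RefSeq gene table of assembly bColLiv1.pat.W.v2, and UBE2E1 and UBE2E2 were not. The symbols PSMA5, PSMB6, PSMD8, PSME3IP1, UBE2A, UBE2D1, UBE2D3 and UBE2L6 of that table met the rule but are no symbols of the members, and were not analysed here.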

How the data were processed

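The 18 libraries came from 9 birds, with both cell types taken from every bird. The authors aligned reads with TopHat 1.4.1 to a draft Columba livia genome, with at most a single hit per read, and estimated FPKM with Cufflinks 1.3.0 including bias correction. The authors counted reads with HTSeq 0.6.1p1 and compared the cell types in DESeq2 1.10.1 with the bird as a block. The deposited table holds 1 FPKM per gene model and library. It also holds columns of the authors' comparison: a p-value and its adjusted form, a Wald score, a log2 fold change and its error, and a mean signal over all libraries, in counts scaled by size factors. Of these, only the mean signal was used here, named as the authors' mean normalised count. Counts per library were not used here, and 0 FPKM columns belonged to no sample.

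FPKM values were tested as log2(FPKM + 1) with limma 3.58.1 in R 4.3.3, with the bird as a block, an intensity trend, and p-values adjusted after Benjamini and Hochberg over all 11393 tested gene models (mean FPKM over 1). A fold change on this scale understates the change of low genes. Birds were paired by the number in the labels. The deviations of libraries of the same bird had a median r of 0.183 (range 0.121 to 0.591 over 9 birds). Those of different birds had a median r of -0.0646 (range -0.143 to 0.144), so the ranges overlapped. Libraries of the same bird also shared a flow cell, and bird and flow cell were not told apart here. Single genes were compared by exact sign-flip permutation over the 9 paired differences. This fit and the depth estimate were tested on simulated data. How many reads lie behind the value of a single library is unknown, since the authors' normalised counts are means over all libraries. For relative depth, steps between FPKM values under 0.3 were compared: of 27048 pairs of such values, 1910 lay within 0.05 (log2) of equal after scaling, against 402 in windows between steps. Since depth is relative, no counting error was given. Other steps used Python 3.11.15 with pandas 2.3.3, numpy 2.4.6 and, for plots, matplotlib 3.10.9.

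The members and gene lists were chosen with earlier results of these data known. Values by sample are given for members with an unadjusted p under 0.05 or among the 5 smallest p in each direction, the 5 highest of each family and the highest and lowest of each class, and in the lists for genes under 0.05 and the highest. PSMB3 and PSMD3 were named after their values were seen. PSMC3IP was set apart from the ATPases. Alternatives were fits without the block or with the flow cell in its place, other filters, pseudocount, trend, robust variance and scaling, each bird and each flow cell left out, and, added after seeing the data, pigeons 435 and 450 left out together. Negative control libraries were not analysed here, and single values of some members and listed genes are not reported here.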

Additional observations from a re-analysis of the deposited data

Results flagged for a closer look

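Among the 20 members described by library, 40 groups of 9 libraries were looked at for a single library far from the other 8, and 8 groups held one. The nominal rate of this rule is about 1 group in 20, for independent and normally distributed values. The groups here share libraries and some of the members were chosen by their p, so the count was not compared with chance. The share over all gene models is not given here. In the library of pigeon 450 with cuticulosomes, PSMA4 was at 879 FPKM, above the 256 to 410 FPKM of the other libraries with cuticulosomes, PSMD11 was at 14.3 FPKM, below 61.4 to 140.0 FPKM, and PSMD5 was at 0.212 FPKM, below 9.97 to 45.9 FPKM. The library of the same bird without cuticulosomes was also low for PSMD5, at 0.366 FPKM, below 15.9 to 77.1 FPKM. Pigeon 435 was low for PSMD9 in both libraries, at 145 FPKM with cuticulosomes, below 302 to 597 FPKM, and at 253 FPKM without, below 403 to 630 FPKM. UBE2R2 was at 0.0277 FPKM in pigeon 513 with cuticulosomes, below 9.76 to 57.5 FPKM, and UBE2L3 at 45.04 FPKM in pigeon 458 with cuticulosomes, below 93.7 to 156 FPKM. The relative depth of that library of pigeon 458 was 0.617, the second lowest after pigeon 450 with cuticulosomes. The part of depth and markers in these values was not tested.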

How the results depend on the processing

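The count of members past an adjusted p of 0.05 was 0 under every alternative run. The 10 members with the smallest p in either direction kept their sign in each of 20 to 22 alternatives. This was largely fixed in advance, since they were chosen by their p in these same libraries. The block, flow cell, trend and robust alternatives also leave the fitted difference itself unchanged. At an unadjusted p under 0.05, PSMD11 and UBE2J1 passed in 21 of 22 alternatives each, UBE2O in 18, UBE2F and UBE2G2 in 14, PSMA3 in 12, PSMD5 in 4 and UBE2R2 in 1. The count of higher members at that level, 2 in the main analysis, was 0 without the bird as a block and 0 with the flow cell in place of the pairing, 1 with a pseudocount of 0.1, 1 without the trend, 1 without the flow cell of pigeons 450, 451 and 458, 1 without that of pigeons 513, 514 and 515, and 0 to 2 with single birds left out. The count of lower members, 4, was 3 without the block, 1 without the flow cell of pigeons 513, 514 and 515, and 2 to 6 with single birds left out. The shares of all gene models under these alternatives are not given here. The pairing changed no adjusted call.

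The unadjusted count of members whose difference varied between flow cells, 1, was 0 with a pseudocount of 0.1, without the trend, under upper quartile scaling and under median ratio scaling, and 0 to 2 with single birds left out. The count of neighbouring levels that differed, 1, was 0 to 2 with single birds left out, for pairs ordered in these same libraries. Of the 10 members, 6 had an exact sign-flip p under 0.05, 4 to 7 with single birds left out and 2, 3 and 3 without the flow cell of pigeons 433, 450 and 513, in that order. These 10 were picked by the smallest limma p on the same paired differences, so this count is no separate support. Among all 69 members tested the count was 7, and the share over all gene models is not given here. Fewer birds allow fewer sign patterns. For the sign-flip test and the order of levels, the block, filter, trend and robust alternatives give no other value. Depth per library is only relative, so low levels such as those of PSME4, UBE2T and UBE2O carry an unknown counting error.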

Other observations

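A few gene models with other names carry the domains of the members. The gene model named SORT1 (CLIV_004375) holds the proteasome domain PF00227 and averaged 94.98 ± 23.5 FPKM in libraries with and 87.4 ± 18.9 FPKM in libraries without cuticulosomes (SD over 9 birds), a level between those of PSMB3 and PSMB2. In the RefSeq table, SORT1 and PSMA5 have 0 protein-coding genes between them. The gene model named TFAM (CLIV_012133) holds the ubiquitin-conjugating domain PF00179 and averaged 53.1 ± 22.7 FPKM with and 59.3 ± 25.4 FPKM without, and TFAM and UBE2D1 are direct neighbours there. UBC84D (CLIV_009386), named after a fly E2, averaged 21.6 ± 15.1 FPKM with and 24.3 ± 13.7 FPKM without. The smallest limma adjusted p of these 3 was 0.953, and all were above 0 in every library. Of the 32 gene models that carry PF00179, 27 are members, and of the 15 that carry PF00227, 14 are.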
